A study of Arabidopsis thaliana with 8 samples.

Results

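The SWEET sugar transporter genes SWEET1, SWEET2, SWEET10, SWEET11, SWEET13 and SWEET17 and the sucrose phosphate synthase gene ATSPS4F were followed across 4 stages of shoot development in Arabidopsis thaliana, 7 genes out of 9905 tested. The members are the probe sets annotated to these genes, 1 for each gene, and all 7 passed the filter on low values. The plants were of the Ler (Landsberg erecta) background, which carries a mutation in the ERECTA receptor gene in all groups, and were grown on soil at 20 °C in short days of 10 h light. RNA came from younger apices (Apex_5DAS), older vegetative apices of day 14 (Apex_14DAS), expanding leaves 1 and 2 (EL_14DAS, day 14) and mature leaves (ML_35DAS, day 35), with 2 Affymetrix ATH1 arrays a group. For the younger apices the titles give day 5 after sowing but the source names day 7. Whether the arrays of a group stand for separate plants is not labelled, so p-values cover only the array-to-array spread, and their precision is limited by 2 arrays a group.

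A young leaf is a sink that imports sugar, and a mature leaf is a source that makes sucrose and exports it. Sucrose phosphate synthase catalyses the rate-setting step of sucrose synthesis in the cytosol. SWEET proteins let sugars pass a membrane along their gradient: SWEET11, with SWEET12, releases sucrose from phloem parenchyma cells into the cell wall space, from where the proton-coupled carrier SUC2 loads it into the phloem. SWEET13 and SWEET10 belong to the same sucrose-transporting clade, SWEET1 carries glucose across the plasma membrane, and SWEET2 and SWEET17 lie in the tonoplast, the membrane of the vacuole.

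Values below are scaled probe set intensities, or their log2 after adding a pseudocount of 7.7, and changes are differences of these log2 values. Intensities of different probe sets cannot be set against each other. The tissues were bulk samples, in which fewer cells of a type and less RNA per cell cannot be told apart. Apex_5DAS replicate 1 stood apart from the other arrays. The probe set of 25S ribosomal RNA gave 193 on it, against 0.961 to 21.3 elsewhere, and the 2 younger-apex arrays agreed least, with a Pearson r of 0.908 across genes, against 0.951 to 0.978 in the other groups. Actin probe sets at the 3' and 5' ends, whose ratio rises as RNA is shortened, gave a ratio of 2.39 there, of 2.47 and 2.59 in mature leaves, and of 1.40 to 1.73 on the remaining arrays. The ratio of the GAPDH probe sets did not repeat this pattern. It was 1.19 on Apex_5DAS replicate 1, 1.21 on its replicate 2, and 1.04 and 1.01 in mature leaves. On the other day 14 arrays it was 0.843 to 1.15.

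All 7 members differed among the 4 groups (limma F test, adjusted p at most 0.0162), as did 35.4% of all genes tested. For SWEET10 and ATSPS4F this F test is not read as a result, since each entered the test through the groups where it is high. In mature leaves against older apices, 4 members were higher (SWEET2, SWEET11, SWEET13 and ATSPS4F), 1 was lower (SWEET10) and 2 did not pass, where 10.3% of all genes were higher and 22.2% lower. In mature against expanding leaves, 4 were higher (SWEET11, SWEET13, SWEET17 and ATSPS4F), 2 were lower (SWEET1 and SWEET10) and 1 did not pass, where 6.93% of all genes were higher and 14.5% lower. The median change of the 7 members, SWEET10 included, was 1.63 in this comparison and that of all genes -0.27. The members were chosen with earlier results of these data known, so this gap and the member counts here and below are a description. SWEET10 entered the test only through the apices, where it is high, so its lower calls stand in these counts but are not read as results, and its values are given as a description. ATSPS4F entered through the leaves, where it is high, so its calls of leaves against apices are likewise a description.

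**Figure D1:**
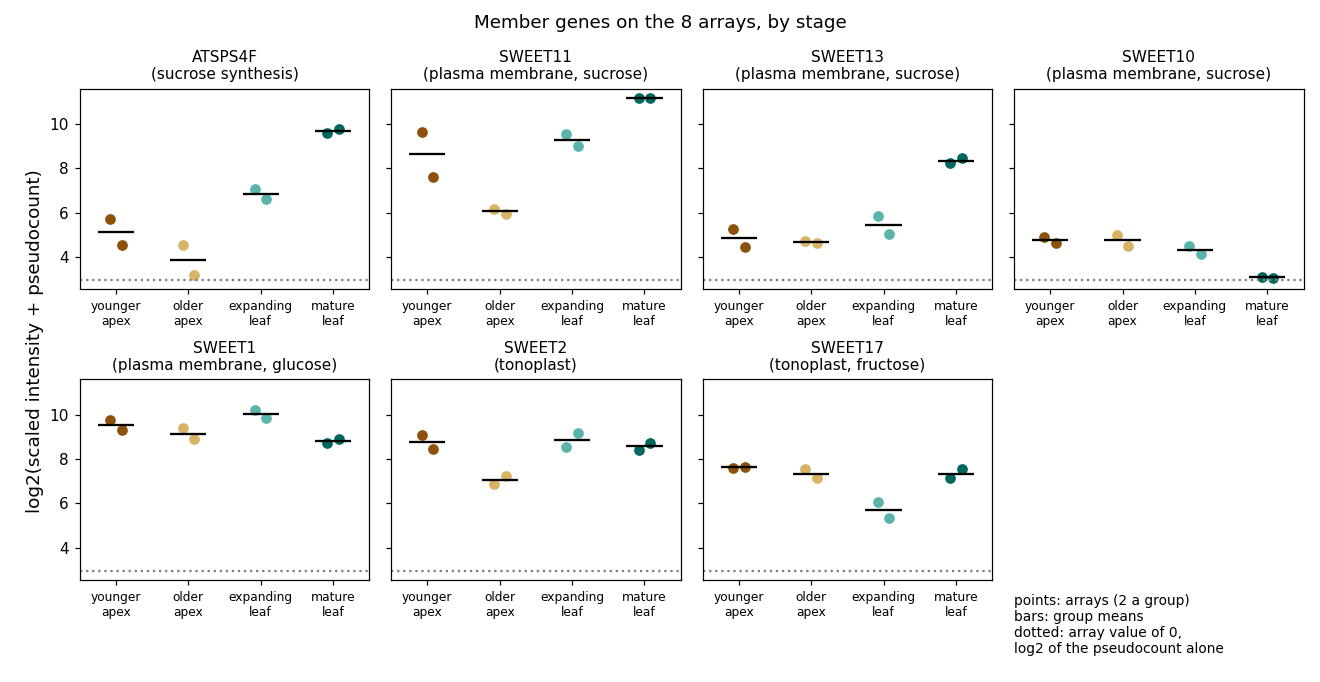
Each panel shows 1 gene, with log2 of the scaled intensity plus the pseudocount on the vertical axis and the 4 stages on the horizontal axis. Points are arrays (2 a group) and bars are group means. ATSPS4F, SWEET11 and SWEET13 are highest on both mature-leaf arrays, SWEET10 is lowest there, SWEET2 is lowest in older apices and SWEET17 is lowest in expanding leaves.

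In expanding leaves against older apices of the same day, 3 members were higher (SWEET2, SWEET11 and ATSPS4F), 1 was lower (SWEET17) and 3 did not pass, with 2.83% of all genes higher and 3.47% lower. In older against younger apices no member was higher and 2 were lower (SWEET2 and SWEET11), with 1.18% of all genes higher and 1.38% lower. Mature leaves against younger apices gave 3 higher members (SWEET11, SWEET13 and ATSPS4F) and 2 lower ones (SWEET1 and SWEET10), with 11.0% of all genes higher and 21.3% lower. Expanding leaves against younger apices gave 1 higher (ATSPS4F) and 1 lower (SWEET17), with 4.87% of all genes higher and 4.89% lower. The comparisons share arrays, so their counts are not independent of each other.

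The scaling of the arrays moves every comparison with mature leaves. The all-gene median change in mature leaves was -0.27 against expanding leaves, -0.32 against older apices and -0.26 against younger apices, and with the equal array medians of the deposited table it was 0.04, 0.11 and 0.08. Of the genes that passed in mature against expanding leaves, 32.4% were higher with the scaling used here, 64.7% with equal medians and 48.1% with quantile normalization. The share was 31.7%, 66.5% and 48.8% against older apices, and 33.9%, 63.1% and 50% against younger apices. In older against younger apices it was 46.1%, or 33.8% with equal medians, and in expanding leaves against older apices 44.9%, or 60.1% with equal medians. Relative to the all-gene median, mature against expanding leaves changed by 3.10 for ATSPS4F, 2.17 for SWEET11, 3.19 for SWEET13, 1.90 for SWEET17, -0.96 for SWEET1, -0.99 for SWEET10 and -0.02 for SWEET2.

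**Figure D2:**
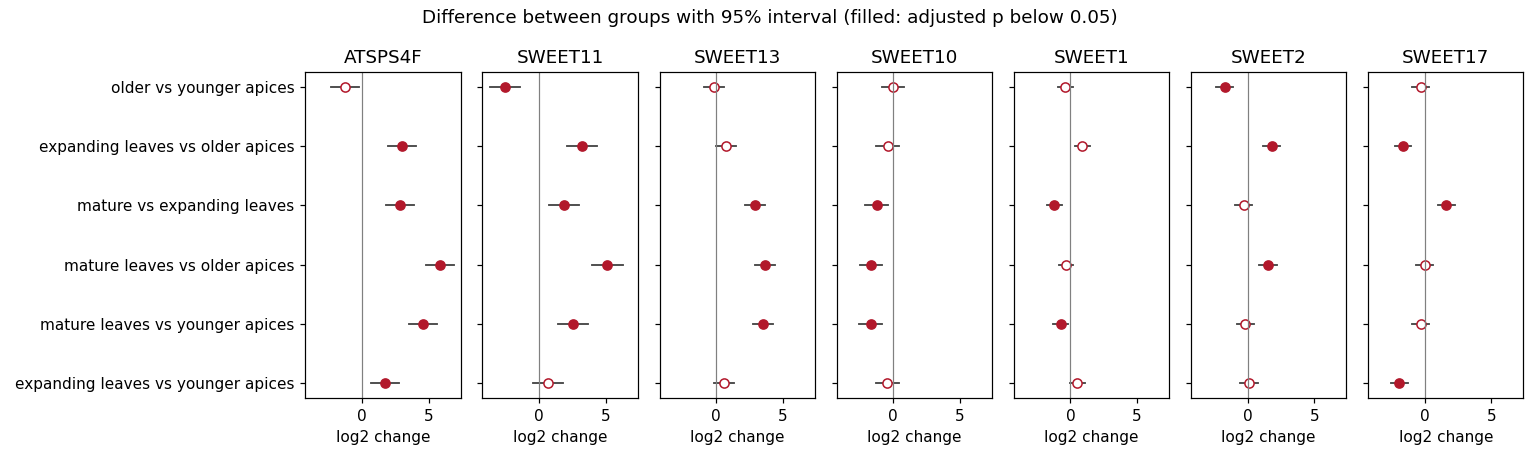
For each gene, the log2 change in the 6 comparisons (first-named group minus second) is plotted with its 95% interval, filled where the adjusted p was below 0.05. The intervals of ATSPS4F and SWEET11 lie above 0 in all 3 comparisons with mature leaves, and those of SWEET13 likewise, while SWEET17 is below 0 in both comparisons of expanding leaves with apices.

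ATSPS4F (AT4G10120) had the widest span of group means among the members with the pseudocount used here, 5.83 on the log2 scale against 5.13 for SWEET11. This rank is not fixed. With the larger pseudocount tried, the ATSPS4F span from older apices to mature leaves was 4.58. That of SWEET11 was at least 4.76 under every alternative. ATSPS4F read 44.9 and 15.8 in younger apices and 15.8 and 1.23 in older apices. It read 129 and 91.4 in expanding leaves, and 767 and 869 in mature leaves. Both mature-leaf arrays lay above both expanding-leaf arrays, and these lay above all 4 apex arrays. The gene passed the value of the filter on 1 younger-apex array, on no older-apex array and on all 4 leaf arrays, so it entered the test through the leaves, where it is high.

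On the log2 scale ATSPS4F stood at 9.69 ± 0.13 in mature leaves, against 6.86 ± 0.32 in expanding leaves (SD, n = 2 each), a 7.09-fold difference (2.83 ± 0.47, SE, adjusted p = 0.0034). Expanding leaves were 8.02-fold above older apices at 3.86 ± 0.99 (SE 0.47, adjusted p = 0.0067) and 3.31-fold above younger apices at 5.14 ± 0.82 (1.73 ± 0.47, adjusted p = 0.045). ATSPS4F levels were thus higher in expanding leaves than in apices, and higher again in mature leaves. Because the gene entered the test through the leaves, its p-values for leaves against apices are not read as support. In mature against expanding leaves all arrays of both groups exceeded the value of the filter. Older apices were at -1.28 ± 0.47 against younger apices and did not pass (adjusted p = 0.18), and single arrays decide its size. It was -0.70 without Apex_5DAS replicate 1 (adjusted p = 0.61), -1.86 without its replicate 2 (0.027), -1.98 without Apex_14DAS replicate 1 (0.15) and -0.58 without its replicate 2 (0.64). A pseudocount at percentile 5 gave -2.14, and at percentile 40 it gave -0.66.

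Against older apices, mature leaves were 56.9-fold higher in ATSPS4F (5.83 ± 0.47, adjusted p = 2.4e-05), and against younger apices 23.5-fold higher (4.55 ± 0.47, adjusted p = 0.00011). These 2 calls and that in mature against expanding leaves held under all 18 alternatives. The size against older apices is not fixed, since 1 of those arrays lay below the pseudocount: it was 7.02 and 4.58 at these percentiles, and 6.53 and 5.13 without Apex_14DAS replicates 1 and 2. Against younger apices it was 3.91 at percentile 40. The rise in expanding leaves over older apices was 4.12 and 1.95 at these percentiles and 3.70 without Apex_14DAS replicate 1, and it was lost without Apex_14DAS replicate 2 (2.30, adjusted p = 0.057) or EL_14DAS replicate 1 (2.77, adjusted p = 0.061). The rise over younger apices was lost under 10 of the 18 alternatives (adjusted p up to 0.21) and was 1.14 without Apex_5DAS replicate 2.

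SWEET11 (AT3G48740), the sucrose exporter of the phloem parenchyma, was also highest in mature leaves. It read 802 and 186 in younger apices, 63.5 and 54.4 in older apices, 756 and 502 in expanding leaves, and 2336 and 2302 in mature leaves. The 2 mature-leaf arrays were nearly equal and above all others, the 2 older-apex arrays were below all others, and the ranges of younger apices and expanding leaves overlapped. The same array that carried the high ribosomal RNA signal, Apex_5DAS replicate 1, gave the higher of the 2 younger-apex values. It also read 7089 for RCA, the Rubisco activase gene of green tissue, against 4147 on replicate 2, and the part of leaf tissue in the SWEET11 value was not tested.

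In mature leaves SWEET11 stood at 11.18 ± 0.01, against 9.28 ± 0.41 in expanding leaves, a 3.73-fold difference (1.90 ± 0.51, adjusted p = 0.027). This call was lost without any of the 4 leaf arrays (1.61 to 2.19, adjusted p up to 0.14), without a filter (adjusted p = 0.053) and with the robust fit (0.064). Expanding leaves were 9.38-fold above older apices at 6.06 ± 0.14 (3.23 ± 0.51, adjusted p = 0.0070), a call lost without Apex_14DAS replicate 2 (0.070) or EL_14DAS replicate 1 (0.063). Mature leaves were 35-fold above older apices (5.13 ± 0.51, adjusted p = 7.6e-05), and that call held under all 18 alternatives.

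The younger apices at 8.63 ± 1.46 decide the remaining SWEET11 values. Older apices were 5.96-fold lower than younger ones (-2.57 ± 0.51, adjusted p = 0.032), or -1.54 without Apex_5DAS replicate 1 and -3.61 without its replicate 2. That call was lost under 9 alternatives, among them leaving out either older-apex array (adjusted p = 0.16). Mature leaves were 5.88-fold above younger apices (2.55 ± 0.51, adjusted p = 0.0043), by 3.59 without replicate 1 and 1.52 without replicate 2, with the call kept. Expanding leaves did not pass against younger apices (0.65, 95% interval -0.48 to 1.79, adjusted p = 0.48). Without Apex_5DAS replicate 1 that difference was 1.69 and passed (adjusted p = 0.0047), and without replicate 2 it was -0.38.

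SWEET13 (AT5G50800), of the same clade, was high in mature leaves alone among the 4 stages. Its intensity was 30.2 and 14.2 in younger apices, 18.6 and 17.3 in older apices, 49.3 and 24.8 in expanding leaves, and 293 and 347 in mature leaves. The mature-leaf arrays stood apart from the other 6, whose ranges lay close together. Mature leaves at 8.35 ± 0.17 were 7.59-fold above expanding leaves at 5.43 ± 0.58 (2.92 ± 0.35, adjusted p = 0.00073), 12.7-fold above older apices at 4.68 ± 0.05 (adjusted p = 5.9e-05) and 11.3-fold above younger apices at 4.85 ± 0.56 (adjusted p = 8.6e-05).

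These 3 calls of SWEET13 held under all 18 alternatives, with changes from 2.45 to 3.33 against expanding leaves. With the pseudocount at percentile 40 they were 2.45, 2.93 against older apices and 2.82 against younger apices. Differences among the other 3 stages did not pass: expanding leaves were 0.75 above older apices (95% interval -0.02 to 1.51, adjusted p = 0.25) and 0.58 above younger apices (adjusted p = 0.35), and older apices were at -0.17 against younger ones (adjusted p = 0.83). SWEET11 and ATSPS4F thus passed between expanding leaves and older apices and SWEET13 did not, and whether these changes differ between the genes was not tested.

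SWEET10 (AT5G50790), a sucrose transporter known to be switched on at the shoot apex by the florigen FT at floral transition, lies next to SWEET13 in the RefSeq gene order, with 0 protein-coding genes between them. It was dim on all arrays, at 22.3 and 17.1 in younger apices, 24.4 and 14.8 in older apices, 15 and 10.0 in expanding leaves, and 0.909 and 0.534 in mature leaves. Both mature-leaf arrays lay below the other 6, and the ranges of the 2 kinds of apices overlapped. It exceeded the value of the filter on only 3 arrays, all from apices, so it entered the test through the apices, and its mature-leaf values lay below the pseudocount.

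The mean log2 value of SWEET10 was 3.07 ± 0.05 in mature leaves, against 4.33 ± 0.25 in expanding leaves, 4.75 ± 0.36 in older apices and 4.77 ± 0.19 in younger apices (SD, n = 2 each). The differences of mature leaves were -1.25 from expanding leaves, -1.67 from older apices and -1.70 from younger apices, and in the first of these neither group exceeded the value of the filter on any array. These sizes depend on the pseudocount. At percentile 5 and 40 of the table they were -2.87 and -0.50 against expanding leaves, -3.46 and -0.73 against older apices, and -3.49 and -0.74 against younger apices.

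SWEET1 (AT1G21460), the plasma membrane glucose transporter, was present on all arrays and peaked in expanding leaves. Its intensity was 878 and 622 in younger apices, 667 and 471 in older apices, 1205 and 911 in expanding leaves, and 419 and 470 in mature leaves. Both expanding-leaf arrays were above all other arrays. Both mature-leaf arrays were below all others, but only just, at up to 470 against 471 on Apex_14DAS replicate 2. In the deposited intensities mature leaves overlapped both kinds of apices. They read 554 and 585, against 587 and 426 in older apices and 913 and 559 in younger apices. Mature leaves at 8.82 ± 0.11 were 2.34-fold lower than expanding leaves at 10.04 ± 0.28 (-1.23 ± 0.25, adjusted p = 0.0087), and with equal array medians the change was -0.88 (adjusted p = 0.049).

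That call of SWEET1 was lost without EL_14DAS replicate 1 (-1.02, adjusted p = 0.074), ML_35DAS replicate 1 (0.086) or ML_35DAS replicate 2 (0.054). Expanding leaves were 0.89 above older apices at 9.15 ± 0.35 and did not pass (95% interval 0.33 to 1.45, adjusted p = 0.067), but passed without either Apex_5DAS array (adjusted p = 0.023 and 0.024). Mature leaves were 1.65-fold lower than younger apices at 9.54 ± 0.35 (-0.73 ± 0.25, adjusted p = 0.0497), a call lost under 13 of the 18 alternatives, with -0.32 at equal array medians (adjusted p = 0.40). Against older apices mature leaves were at -0.33 (95% interval -0.89 to 0.23), and at 0.18 with equal array medians.

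Of the tonoplast members, SWEET2 (AT3G14770), best known from roots, was set apart by a low level in older apices. It read 538 and 341 in younger apices, 112 and 142 in older apices, 369 and 577 in expanding leaves, and 338 and 420 in mature leaves. The older-apex arrays lay below the other 6, and the 3 remaining stages overlapped. Older apices at 7.06 ± 0.23 were 3.27-fold lower than younger apices at 8.77 ± 0.46 (-1.71 ± 0.29, adjusted p = 0.019), expanding leaves at 8.87 ± 0.45 were 3.51-fold above older apices (1.81 ± 0.29, adjusted p = 0.0074), and mature leaves at 8.59 ± 0.22 were 2.88-fold above them (1.53 ± 0.29, adjusted p = 0.0032).

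The SWEET2 call in mature leaves against older apices held under all 18 alternatives. That in expanding leaves was lost without Apex_14DAS replicate 1 (adjusted p = 0.058) or EL_14DAS replicate 2 (0.060), and that between the apices under 7 alternatives, among them leaving out either older-apex array (adjusted p = 0.16 and 0.078). No difference passed among the other 3 stages. Mature leaves were at -0.29 against expanding leaves (95% interval -0.93 to 0.35) and at -0.18 against younger apices (-0.82 to 0.46), and expanding leaves were at 0.11 against younger apices (-0.54 to 0.75).

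SWEET17 (AT4G15920), which carries fructose across the tonoplast, had its lowest level in expanding leaves. Its intensity was 188 and 191 in younger apices, 179 and 132 in older apices, 59.1 and 33.4 in expanding leaves, and 133 and 180 in mature leaves. Both expanding-leaf arrays were below the other 6, and the ranges of mature leaves and older apices overlapped. Expanding leaves at 5.71 ± 0.50 were 3.77-fold lower than younger apices at 7.63 ± 0.01 (-1.91 ± 0.28, adjusted p = 0.0034) and 3.08-fold lower than older apices at 7.34 ± 0.29 (-1.62 ± 0.28, adjusted p = 0.011). Mature leaves at 7.34 ± 0.30 were 3.09-fold above expanding leaves (1.63 ± 0.28, adjusted p = 0.0044).

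The SWEET17 call against younger apices held under all 18 alternatives. That against older apices was lost without Apex_14DAS replicate 1 (-1.42, adjusted p = 0.084), replicate 2 (-1.83, 0.056) or EL_14DAS replicate 2 (-1.27, 0.076), and the rise in mature leaves without ML_35DAS replicate 2 (1.42, 0.053). Mature leaves were at 0.01 against older apices (95% interval -0.63 to 0.64) and at -0.28 against younger apices (-0.92 to 0.35), and neither passed.

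**Figure D3:**
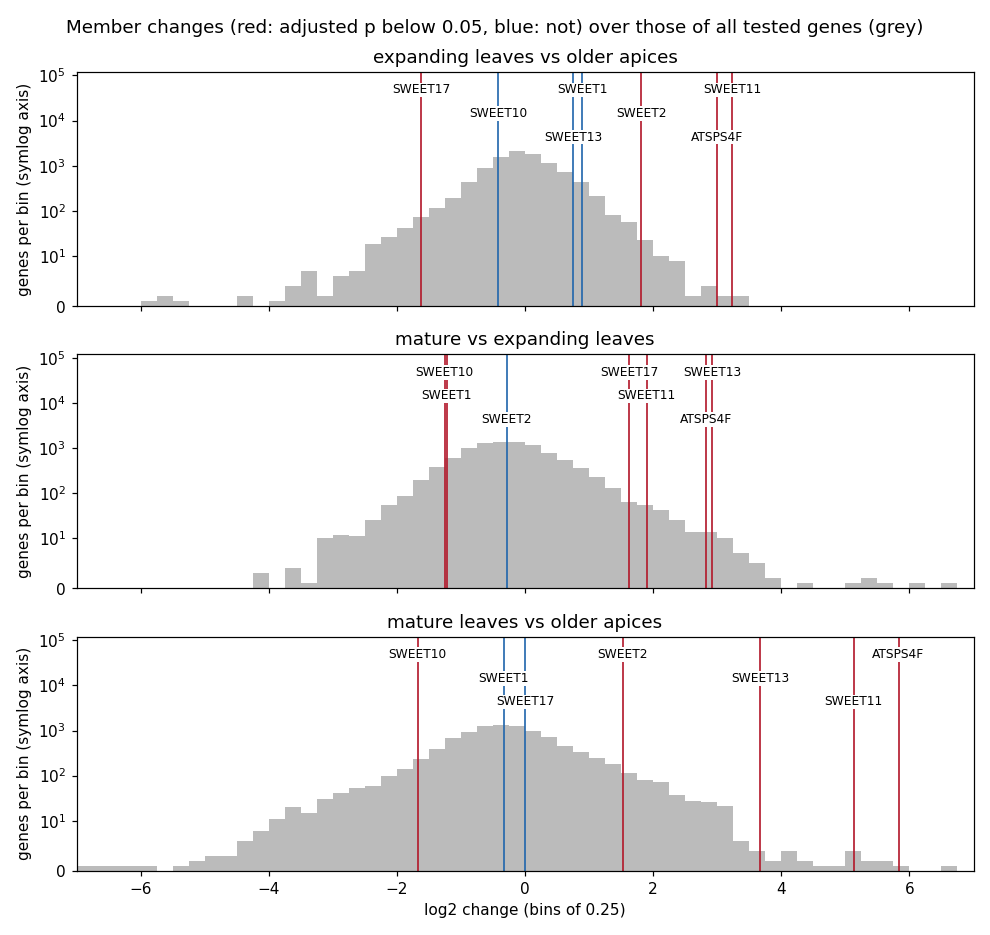
Grey bars count all 9905 tested genes by log2 change in 3 comparisons (vertical axis on a symmetric log scale, bins of 0.25), and lines mark the members, red where the adjusted p was below 0.05 and blue where it was not. ATSPS4F and SWEET11 lie at the upper edge of the genes in expanding leaves against older apices and, with SWEET13, in the upper tail in mature leaves against older apices, while SWEET1 and SWEET10 lie within the bulk of genes in mature against expanding leaves.

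The order of the 4 stages varied among the members. ATSPS4F, SWEET11 and SWEET13 shared 1 order of mean levels: mature leaves, expanding leaves, younger apices, older apices. In this order, the step between mature and expanding leaves passed for all 3 genes, that between expanding leaves and younger apices passed for ATSPS4F, and that between older and younger apices passed for SWEET11. The last 2 calls and that of SWEET11 between the leaf stages were lost under several alternatives, as given above, and differences between the genes were not tested. SWEET10 had its lowest mean in mature leaves, below expanding leaves, and the means of older and younger apices were nearly equal, with overlapping arrays. SWEET1 ran from expanding leaves through younger and older apices to mature leaves, and no step between neighbours in that order passed. SWEET2 ran from expanding leaves through younger apices and mature leaves to older apices, where only the last step passed, and SWEET17 from younger apices through mature leaves and older apices to expanding leaves, where again only the last step passed.

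The similarity of the members over the 8 arrays can be described by Pearson's r of their log2 values, which share the arrays and rest mainly on the 4 stages. ATSPS4F had an r of 0.935 with SWEET11 and 0.935 with SWEET13, and SWEET11 had 0.836 with SWEET13. The neighbouring genes SWEET10 and SWEET13 had -0.918, but SWEET10 was dim on all arrays. Its mature-leaf values lay below the pseudocount, in the group where SWEET13 was high, so this r is a description only. SWEET2 and SWEET17, both of the tonoplast, had -0.359.

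Of the 17 SWEET loci of the family, 16 had a probe set of a single gene, and SWEET12 was not analysed here. The other 10 SWEET genes were dim, with no intensity above 81.2 on any array. None of the 10 passed in 4 of the 6 comparisons, including mature against expanding leaves, where their median change was -0.56. SWEET4 came closest there (-0.85, adjusted p = 0.059), with 52.2 and 45.8 in expanding leaves, against 24.2 and 23.3 in mature leaves. In expanding leaves against older apices it was at 0.91 (adjusted p = 0.096). SWEET14, of the sucrose clade, had intensities of 5.03 and 8.55 in mature leaves, against 30.4 and 39.0 in older apices, and was lower there (-1.55 ± 0.40, adjusted p = 0.014). SWEET15, also called SAG29, had 7.59 and 8.17 in mature leaves, against 30.6 and 75.3 in younger apices, and was lower as well (-1.85 ± 0.52, adjusted p = 0.022). In mature leaves neither gene exceeded the value of the filter, 9.95 and 10.6 on these arrays. SWEET14 exceeded it on both older-apex arrays and SWEET15 on both younger-apex arrays. Each thus entered the test through groups where it is high, so these p-values are not read as support. The sizes are not fixed, since the mature-leaf values lie near the pseudocount: with it at percentile 5 and 40 they were -2.20 and -0.85 for SWEET14 and -2.45 and -1.12 for SWEET15. The SWEET15 difference was -2.41 without Apex_5DAS replicate 1 and -1.30 without its replicate 2, where it was lost (adjusted p = 0.12). Both calls were lost, among other settings, with quantile normalization and without either mature-leaf array (adjusted p up to 0.12). SWEET16, the tonoplast relative of SWEET17, passed in no comparison.

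Few other genes of sucrose synthesis and transport could be read. Of 4 sucrose phosphate synthase genes ATSPS4F was the only one with a named probe set, and none of the 9 SUC carriers and 6 sucrose synthases had one. Of the 2 sucrose phosphate phosphatase genes tested, which encode the enzyme that acts after ATSPS4F, AT2G35840 had 868 and 766 in mature leaves, against 431 and 393 in expanding leaves, and rose by 0.97 ± 0.19 (adjusted p = 0.0071). That call was lost without ML_35DAS replicate 1 or EL_14DAS replicate 2 (up to 0.083), whereas its rises of 1.58 over older apices (adjusted p = 0.00023) and 1.28 over younger apices (adjusted p = 0.00094) held under all 18 alternatives. AT3G54270 was lower in mature leaves than in younger apices (-0.91, adjusted p = 0.036), a call lost under 9 alternatives. F2KP, which sets the level of the sucrose synthesis regulator fructose 2,6-bisphosphate, was at 1510 and 1604 in mature leaves, against 608 and 649 in older apices (adjusted p = 0.0025) and 500 and 805 in younger apices (adjusted p = 0.0027), and rose over both.

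Of the 6 tonoplast sugar carriers tested beside SWEET2 and SWEET17, 1 rose and 1 fell in mature against expanding leaves, where 6.93% of all genes were higher and 14.5% lower. Their median change was -0.66, and that of all genes -0.27. TMT2, a proton-coupled carrier that imports sugar into the vacuole, had 92.9 and 108 in mature leaves, against 318 and 215 in expanding leaves (-1.32, adjusted p = 0.011), and the call was lost without EL_14DAS replicate 1 or either mature-leaf array (adjusted p up to 0.10). SFP1, a monosaccharide carrier gene of the ERD6-like group, had 750 and 790 in mature leaves, against 263 and 285 in expanding leaves (1.47, adjusted p = 0.0012). SFP1 was also lower in older than in younger apices (-1.34, adjusted p = 0.011) and in expanding leaves than in younger apices (-1.09, adjusted p = 0.0078), and both of these calls were lost under 3 alternatives (adjusted p up to 0.11). None of the 6 passed in expanding leaves against older apices, TMT2 and SFP1 again went apart in mature leaves against older apices (-1.37 and 1.72), and TMT1 and TMT2 were lower in mature leaves than in younger apices (-1.81 and -1.23). The TMT1 difference was -0.99 without Apex_5DAS replicate 1, where it read 303, and -2.62 without replicate 2, where it read 92.8. Without ML_35DAS replicate 1 each of these TMT1 and TMT2 calls was lost. Of 2 STP hexose carrier genes tested, AT1G34580 fell in mature against expanding leaves (-1.46, adjusted p = 0.0065), a call lost without ML_35DAS replicate 2 (0.061), and the 2 invertase genes passed in no comparison.

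**Figure D4:**
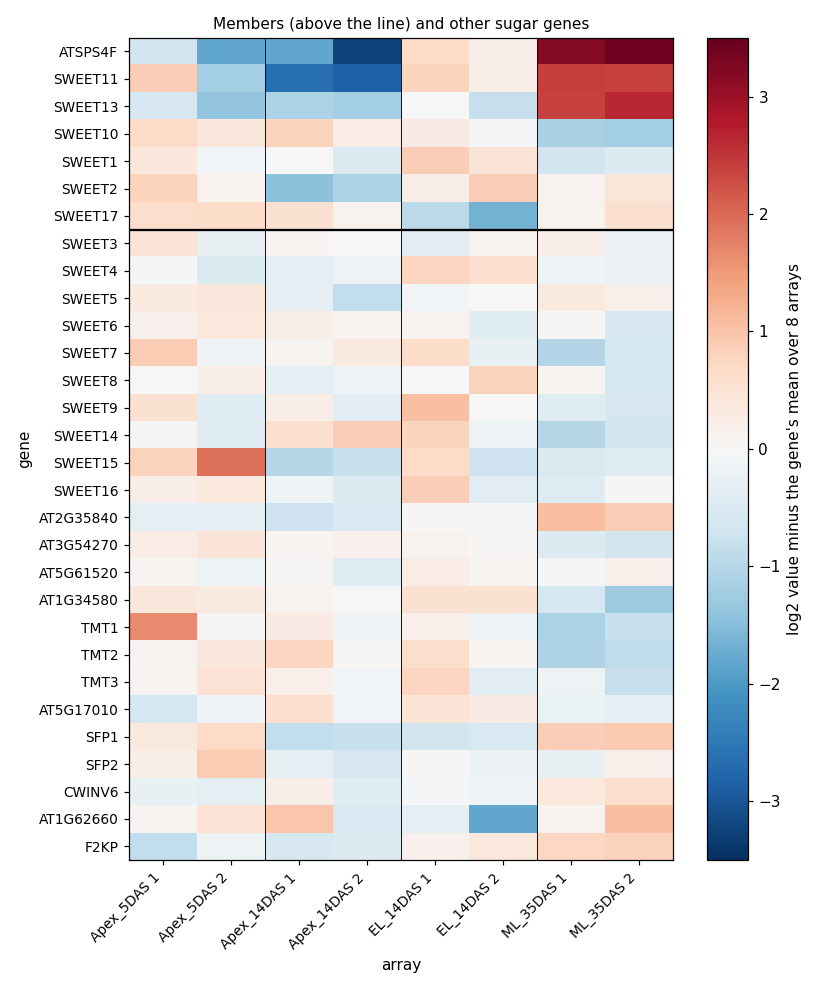
Colours give each gene's log2 value minus its mean over the 8 arrays (columns, in stage order), for the members above the line and the other tested sugar genes below it. The members ATSPS4F, SWEET11 and SWEET13 are red on both mature-leaf arrays, and AT2G35840, SFP1 and F2KP are also red there, while the other SWEET genes stay close to their means on most arrays.

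The markers that could be read moved with these groups as follows, and their part in the member values was not tested. The summed intensity of 3 dividing-cell markers (AUR1, AUR2 and TOPII, of 8 listed) was 652 to 877 in younger apices, 1298 to 1307 in older apices, 357 to 604 in expanding leaves and 47.6 to 56.2 in mature leaves. SWEET2 and SWEET11 were thus lowest where this sum was highest. The means of ATSPS4F and SWEET13 were also lowest there, with arrays that overlapped those of younger apices. The remaining members differed from this: the means of SWEET1 and SWEET10 were lowest in mature leaves and that of SWEET17 in expanding leaves. The green-tissue gene RCA, 1 of 8 listed, read 3931 to 7089 over the 4 apex arrays, 5487 to 6159 in expanding leaves and 8008 to 8714 in mature leaves, and was thus high in the samples labelled apices too. OPS, a gene of young sieve cells and the only one of 11 phloem markers with a named probe set, read 47.1 to 57.1 in younger apices, 42.4 to 45.3 in older apices, 2.03 to 15.6 in expanding leaves and 1.71 to 9.19 in mature leaves. SWEET11 and SWEET13 were thus highest in mature leaves, where OPS was low. CLV3, the only one of 10 meristem markers with a named probe set, did not pass the filter on low values and read 0.588 to 4.87 on the leaf arrays, against 4.11 to 13.3 on the apex arrays. The senescence marker WRKY53, 1 of 6 listed, read 26.6 to 40.6 in mature leaves, against 45.5 to 66.5 in expanding leaves, and passed in no comparison.

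The genes most like each member were sought among 4440 genes whose group means span at least 1 log2 unit, by Pearson's r over the 8 arrays. For ATSPS4F they were NDB2 (0.992), AT2G34460 (0.992) and AT4G03450 (0.988). SWEET11 was most like AT1G75460 (0.991), AT3G52230 (0.987) and CRR42 (0.982), and SWEET13 most like AT5G46270 (0.989), RING1 (0.989) and PDF1.2 (0.988), a defensin gene. For SWEET10 they were AT3G52550 (0.990), AT2G28330 (0.989) and AT2G18980 (0.987), and for SWEET1 AT5G37040 (0.967), AT1G18340 (0.965) and AT2G19150 (0.957). SWEET2 was most like AT5G59250 (0.960), AT4G28290 (0.952) and AT5G56100 (0.946), and SWEET17 most like AT5G24750 (0.966), AT5G41400 (0.946) and AT4G30460 (0.943). With 8 arrays in 4 groups, r of this size rests mainly on the groups that stand far apart, and the order of close means can differ. RING1 had means of 4.81 in younger and 5.26 in older apices, where SWEET13 had 4.85 and 4.68. The r values of SWEET10 rest on dim values, with its mature leaves below the pseudocount.

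**Figure D5:**
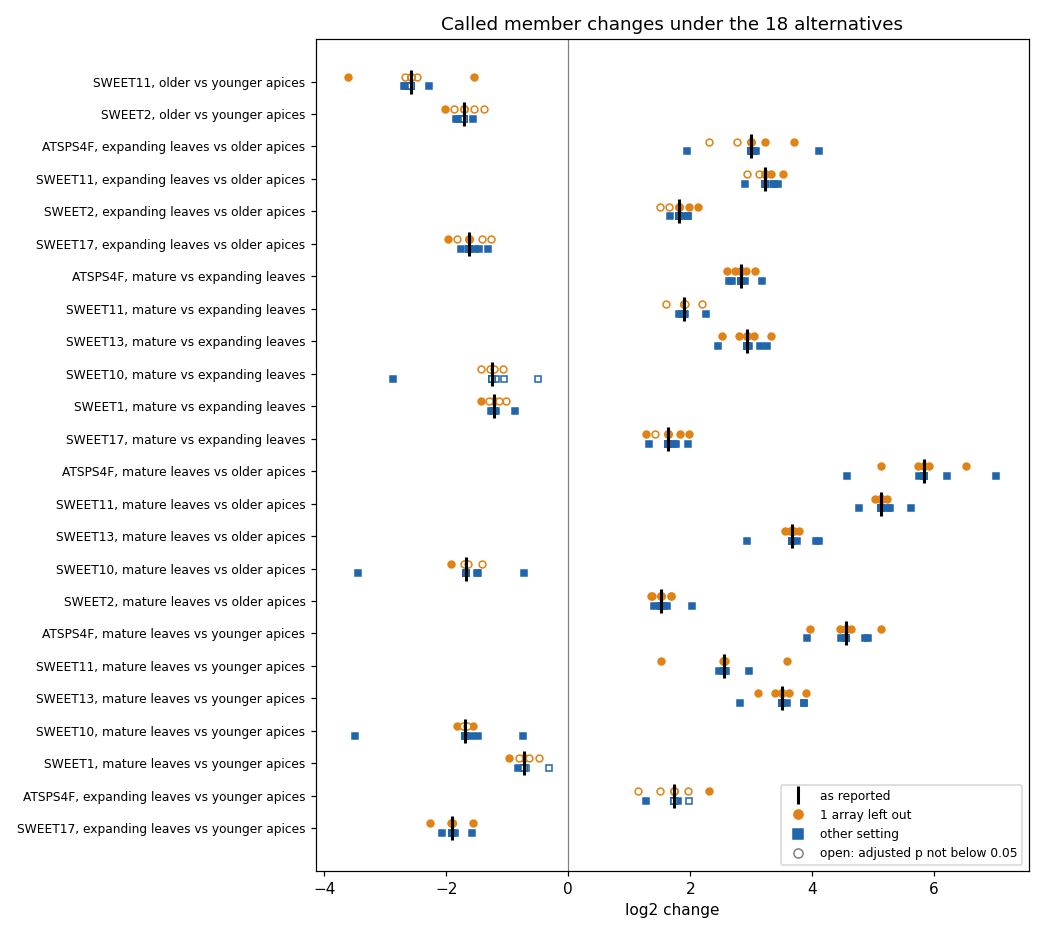
The 24 called member changes (first-named group minus second, log2) are shown as reported and under the 18 alternatives, with circles for 1 array left out, squares for another setting and open symbols where the adjusted p was not below 0.05. All symbols of the 24 stay on the side of 0 where the reported value lies, and those of SWEET13 and of ATSPS4F in comparisons with mature leaves are all filled.

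Of the 42 member comparisons 24 passed, 3 of them the lower calls of SWEET10 in mature leaves, and 10 of the 24 passed under all 18 alternatives. Between the apices 1.18% of all genes were higher and 1.38% lower. In mature leaves against older apices these shares were 10.3% and 22.2%, and the other comparisons lay between. How many of all genes kept their calls under all 18 alternatives was not counted, so these member counts are a description. The 10 were SWEET13 and ATSPS4F in mature leaves against each of the other 3 stages, SWEET11 in mature leaves against both kinds of apices, SWEET2 in mature leaves against older apices, and SWEET17 in expanding leaves against younger apices. Those of ATSPS4F against apices carry the limit that the gene entered the test through the leaves. The other 14, those of SWEET10 included, lost the threshold under at least 1 alternative, and none of the 24 changed direction under any of the 18.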

How the data were processed

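Total RNA, extracted with a Qiagen RNeasy kit per the labels' protocols, was hybridised to ATH1 arrays. The deposited values are linear probe set intensities, made with MAS5 (per the submitters' processing notes), and the median of each deposited array was 50, by a step not given in the sources used here. The 64 control probe sets were left out, and each array was scaled to the median 2% trimmed mean, 132.7 (factors 0.757 to 1.14). Values became log2(intensity + 7.7), the pseudocount being percentile 20 of the table. A probe set was kept if above percentile 30 of its array on at least 2 arrays. Names came from GEO's platform annotation, which lists 14016 of 22810 probe sets (13513 with 1 gene, 503 with several, 8730 unnamed here), and 13436 matched RefSeq TAIR10.1. The probe set with the highest mean stood for a gene.

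All 8 arrays entered 1 limma 3.58.1 fit in R 4.3.3 (lmFit, contrasts.fit, trended eBayes; two-sided tests), with 4 residual and 6.21 prior degrees of freedom and Benjamini-Hochberg adjustment over 9905 genes at 0.05. The fit was run on simulated data with independent noise. That check asked only for right signs and for more recovered large changes than false calls, so it does not test the p-values. The 18 alternatives were other scalings, pseudocounts, filters, variance settings, a replicate block, other probe set averaging, only the 2 groups compared and leaving out each of the 8 arrays. The members and lists were chosen with earlier results of these data known. Named were the 7 members, from each list up to 3 genes with the lowest adjusted p or those that passed in either expanding-leaf comparison, and the 3 genes most like each member. A few genes outside this rule (SWEET15, SWEET16, TMT1, RCA and other markers) were named after their values were seen. No sequences were printed.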

Additional observations from a re-analysis of the deposited data

How the results depend on the processing

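With 2 arrays a group, single arrays decide many counts. Members called numbered 2 in older against younger apices (1 without a filter or with the robust fit, 0 without the intensity trend or with only the 2 groups compared, 0 to 3 without 1 array), 4 in expanding leaves against older apices (1 to 5 without 1 array), 6 in mature against expanding leaves (2 to 6), 5 in mature leaves against younger apices (3 to 5) and 2 in expanding leaves against younger apices (1 with the pseudocount at percentile 5, without a filter, without the trend, with the robust fit or with only the 2 groups compared, and 1 to 3 without 1 array). The 5 in mature leaves against older apices stayed within 1.5 times. Genes called numbered 254 between the apices (90 without a filter, 64 without the trend, 28 with only the 2 groups, 27 to 1788 without 1 array), 624 in expanding leaves against older apices (354, 341, and 95 to 1222 without 1 array), 2118 in mature against expanding leaves (472 to 3198), 3226 in mature leaves against older apices (1476 to 4097), 3196 against younger apices (1407 to 3564), and 966 in expanding leaves against younger apices (349 with only the 2 groups, 318 to 1766 without 1 array). Values that changed sign belonged to differences that had not passed. With equal array medians SWEET2 was at 0.0603 in mature against expanding leaves and 0.22 against younger apices, SWEET1 at 0.18 in mature leaves against older apices and SWEET17 at 0.11 against younger apices. Between the apices SWEET10 was at 0.0123 with quantile normalization and -0.28 to 0.23 without 1 array, and SWEET13 at -0.56 to 0.23. Without 1 array SWEET2 was at -0.60 to 0.0306 in mature against expanding leaves, -0.50 to 0.14 against younger apices and -0.22 to 0.43 in expanding leaves against younger apices, SWEET17 at -0.20 to 0.22 in mature leaves against older apices and SWEET11 at -0.38 to 1.69 in expanding leaves against younger apices. Where no other cause is named, the cause was not tested.

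The replicate numbers share only a number: the deviations of same-numbered arrays had correlations from -0.09 to 0.31, over 0.1 in 2 of 6 pairs of groups. With the replicate block, members called numbered 2, 5, 6, 5, 5 and 2 and genes called 260, 651, 2168, 3274, 3292 and 983, in the order older against younger apices, expanding leaves against older apices, mature against expanding leaves, mature leaves against older apices, mature leaves against younger apices and expanding leaves against younger apices. Under the block SWEET1 passed in expanding leaves against older apices (adjusted p = 0.045), and no member call was lost.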
